A study of Macaca mulatta with 24 samples.

Results

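The transcripts of 8 cell surface receptors for hormones and neurotransmitters were measured in omental white adipose tissue (WAT), a visceral fat depot, of female rhesus macaques. They were *LHCGR*, *AVPR2*, *CRHR1*, *PTGDR*, *CHRM3*, *APLNR*, *SSTR3* and *GRM7*, which are 8 of the 32386 genes in the count table. They were chosen by name, with their values in animals given both treatments against controls already known, so that comparison is given for them as a description. RNA-seq was performed on 1 biopsy from each of 24 animals in 4 groups of 6. Controls (*C*) carried cholesterol implants and ate monkey chow, the *T* group carried testosterone implants and ate chow, the *WSD* group carried cholesterol implants and ate a high-fat Western-style diet, and the *T* + *WSD* group received testosterone and the diet together. Treatment lasted 3 years in all groups, the labels give an age of 4 years for every animal while the study's methods give an older age at biopsy, and the animals of each group were picked by the study to represent its findings on fat mass and insulin. The design asks how excess androgen and diet, alone or together, relate to transcript levels in visceral fat.

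All 8 receptors belong to the G protein-coupled receptors, which cross the cell membrane and pass the binding of a ligand outside the cell to a G protein inside it. Receptors coupled to Gs stimulate adenylyl cyclase and raise cAMP, the signal that drives lipolysis in adipocytes, and receptors coupled to Gi lower it. Receptors coupled to Gq activate phospholipase C and release calcium from internal stores. Fat is a mixture of adipocytes, vessels, immune cells, fibroblasts and, on the omentum, a mesothelial lining, and each of these carries receptors of its own.

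Totals of 6899185 to 28270776 counted reads per library (median 20630512.5) gave the receptors few reads, and together they held between 0.00233% and 0.00882% of the counts of a library. Levels are given in CPM, the reads of a gene per 1e+06 reads of the library, after TMM normalization. They allow a receptor to be compared between animals but not with another receptor, since transcript length was not available. In 8 libraries, 2 in each group, the gene ENSMMUG00000038258 took 9.92% to 54.7% of the counts, against 0.879% to 2.51% in the other 16. These 8 are called the library batch. The labels name no batch, so the name stands only for a share of this gene over 5%. What set these libraries apart was not tested. Of the markers of adipocytes, 8 of 10 were in the table and none of them was at 0 in every library of a group. For listed genes, being in the table means that the symbol matched an identifier there. Each receptor passed the filter on low counts, by which 15207 genes were tested, and 5 of the 8 were above 3 counts in every library. A gene is called here when its adjusted p in edgeR's quasi-likelihood test is under 0.05 and its fold change is over 1.5.

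In *T* + *WSD* against *C*, the comparison by which the receptors were chosen, 5 of the 8 were called, 2 higher and 3 lower, where 10% of all genes tested were called (4.72% higher and 5.29% lower). *LHCGR* and *AVPR2* were higher and *CRHR1*, *PTGDR* and *CHRM3* were lower. *AVPR2* and *CHRM3* were called whichever single animal was left out, whereas without 1 animal *CRHR1* lost its call in 19 of 24 fits, *LHCGR* in 15 and *PTGDR* in 9. *CRHR1* also lost it with RLE or upper-quartile scaling, with only the groups compared or without ENSMMUG00000038258, and *LHCGR* with the library batch as covariate. Without the filter on low counts, *CRHR1*, *LHCGR* and *PTGDR* were not called. DESeq2 called all 8, and 10.9% of the genes it tested. *APLNR* (log2 fold change 0.97), *SSTR3* (-1.42) and *GRM7* (-1.44) were not called, and *GRM7* lay nearest to the threshold from outside and *CRHR1* nearest from inside. The 6 *T* + *WSD* animals and the 6 controls overlapped for all 8 receptors, where 7.61% of all genes tested did not overlap. In a tissue biopsy, fewer cells of a type and less RNA per cell cannot be told apart, and this holds for every level below.

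**Figure D1:**
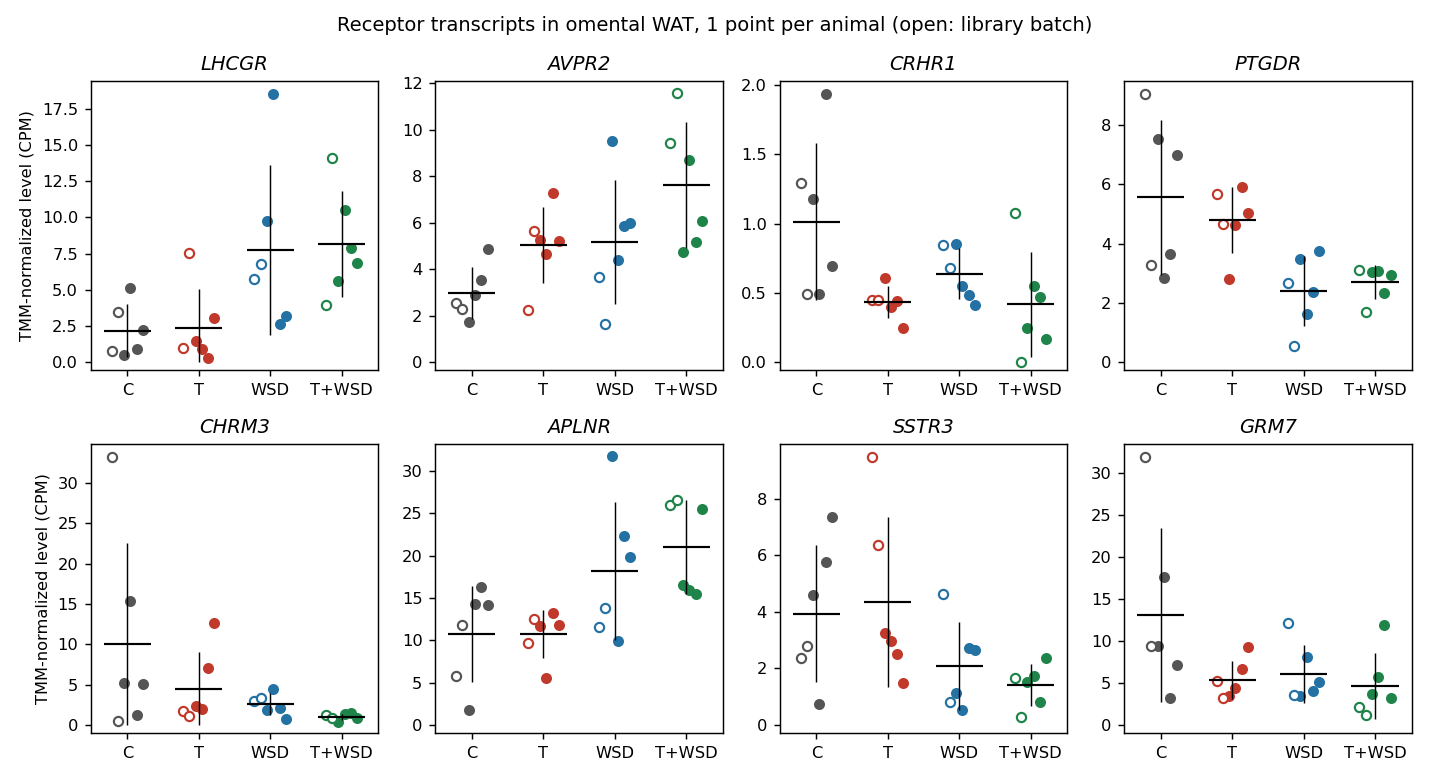
TMM-normalized level in CPM (linear axes, 1 panel per receptor) of each animal in *C*, *T*, *WSD* and *T* + *WSD*, with the group mean (horizontal line) and SD (vertical line, drawn from 0 where mean minus SD is below 0), n = 6 per group. Open points are libraries of the library batch. *LHCGR* and *APLNR* sit higher in both diet groups, *PTGDR* sits lower in both, and the highest controls of *CHRM3* and *GRM7* reach 33.2 and 31.9 CPM.

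Of the receptors, 4 couple mainly to Gs. *LHCGR* (ENSMMUG00000010368) encodes the receptor for luteinizing hormone and chorionic gonadotropin, known for driving steroid synthesis in the gonads. It ran from 0.505 to 5.16 CPM in *C* (median 1.54) and from 0.305 to 7.54 CPM in *T* (median 1.22). In *WSD* it ran from 2.61 to 18.5 CPM (median 6.27) and in *T* + *WSD* from 3.94 to 14.1 CPM (median 7.36). *LHCGR* was thus low in most animals on chow and higher in both groups on the diet, and 5 of the 6 *T* + *WSD* animals and 4 of the 6 *WSD* animals lay above every control. The log2 fold change against *C* was 1.92 ± 0.66 (SE) for *T* + *WSD*, 1.88 ± 0.66 for *WSD* alone and 0.11 ± 0.66 for *T* alone. Its named protein-coding neighbours in the RefSeq annotation of the T2T-MMU8v2.0 assembly were *FSHR* and *GTF2A1L*. *FSHR*, the receptor for follicle-stimulating hormone, had no more than 4 counts in any library. *GTF2A1L* had no matched identifier and was not assessed.

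*AVPR2* (ENSMMUG00000045962) encodes the V2 vasopressin receptor, through which the kidney retains water. Its level was 1.73 to 4.86 CPM in *C* (median 2.71) and 2.24 to 7.28 CPM in *T* (median 5.23). Under the diet it was 1.63 to 9.53 CPM in *WSD* (median 5.12) and 4.74 to 11.6 CPM in *T* + *WSD* (median 7.37). All 3 treated groups had a higher median than the controls, and in *T* + *WSD* 5 of 6 animals exceeded the highest control. Log2 fold changes against *C* were 1.32 ± 0.34 (SE) for *T* + *WSD*, 0.81 ± 0.33 for *WSD* alone and 0.76 ± 0.33 for *T* alone.

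*CRHR1* (ENSMMUG00000004108) encodes the receptor by which corticotropin-releasing hormone acts on the pituitary, and it was the least well counted, with 0 to 44 counts per library. It was measured at 0.492 to 1.93 CPM in *C* (median 0.937), 0.250 to 0.608 CPM in *T* (median 0.444) and 0.416 to 0.855 CPM in *WSD* (median 0.615). In *T* + *WSD* it reached from 0 to 1.08 CPM (median 0.36). The animal at 0 had the shallowest library, where 3 counts, the floor used here for counting error, correspond to 0.848 CPM. The highest 3 values belonged to controls, and the lowest control exceeded 5 of 6 animals given *T* and 4 of 6 given *T* + *WSD*. That lowest control, animal 2 of the library batch, had only 3 counts. The next control, animal 4, was at 0.495 CPM with 12 counts. Against *C* the log2 fold change was -1.27 ± 0.44 (SE) for *T* + *WSD*, -0.72 ± 0.42 for *WSD* alone and -1.26 ± 0.42 for *T* alone.

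*PTGDR* (ENSMMUG00000000024) encodes the DP1 receptor for prostaglandin D2. Its range was 2.85 to 9.05 CPM in *C* (median 5.32) and 2.80 to 5.92 CPM in *T* (median 4.85). It was 0.542 to 3.74 CPM in *WSD* (median 2.52) and 1.70 to 3.11 CPM in *T* + *WSD* (median 3.00). Both diet groups were low, and 4 of 6 *WSD* animals and 2 of 6 *T* + *WSD* animals lay under every control. The log2 fold change against *C* was -1.02 ± 0.33 (SE) for *T* + *WSD*, -1.19 ± 0.33 for *WSD* alone and -0.22 ± 0.32 for *T* alone.

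*CHRM3* (ENSMMUG00000021442) encodes the M3 muscarinic receptor for acetylcholine, which couples to Gq and is known for smooth muscle contraction and gland secretion. Its controls spread from 0.492 to 33.2 CPM (median 5.14), and *T* animals from 1.08 to 12.7 CPM (median 2.20). *WSD* animals ran from 0.707 to 4.50 CPM (median 2.5) and *T* + *WSD* animals from 0.412 to 1.42 CPM (median 1.05). The *T* + *WSD* animals lay close together at the low end, but the lowest and the highest control bracketed nearly every other animal, and only 1 *T* + *WSD* animal lay under the lowest control. That control, animal 2 of the library batch, had only 3 counts. The next control was at 1.19 CPM, and *T* + *WSD* animals 9, 8 and 12 were at 0.412, 0.848 (also 3 counts) and 0.915 CPM. The log2 fold change of *CHRM3* against *C* was -3.29 ± 0.79 (SE) for *T* + *WSD*, the most negative of the 8 receptors in that comparison, -1.99 ± 0.73 for *WSD* alone and -1.16 ± 0.70 for *T* alone. Without control animal 1, which held the 33.2 CPM, these were -2.41, -1.12 and -0.30.

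The remaining 3 receptors couple to Gi. *APLNR* (ENSMMUG00000010627) encodes the receptor for apelin, which is known in endothelial cells. It was found at 1.77 to 16.2 CPM in *C* (median 13) and 5.52 to 13.2 CPM in *T* (median 11.7). On the diet it was at 9.94 to 31.7 CPM in *WSD* (median 16.8) and at 15.5 to 26.6 CPM in *T* + *WSD* (median 21). The *T* + *WSD* animals did not overlap with the *T* animals, and 4 of them lay above every control. Log2 fold changes against *C* were 0.97 ± 0.37 (SE) for *T* + *WSD*, 0.78 ± 0.37 for *WSD* alone and 0.00 ± 0.37 for *T* alone.

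*SSTR3* (ENSMMUG00000018853) encodes a somatostatin receptor. Its values were 0.743 to 7.36 CPM in *C* (median 3.69) and 1.47 to 9.49 CPM in *T* (median 3.11). They were 0.513 to 4.65 CPM in *WSD* (median 1.90) and 0.283 to 2.37 CPM in *T* + *WSD* (median 1.60). The groups on the diet were lower in median, with wide overlap between all 4 groups. Outside the library batch the median was 5.17 CPM in *C* and 2.74 in *T*, and within it 2.58 in *C* and 7.93 in *T*. The log2 fold change against *C* was -1.42 ± 0.56 (SE) for *T* + *WSD*, -0.95 ± 0.55 for *WSD* alone and 0.12 ± 0.54 for *T* alone, the last of which was -0.85 outside the batch.

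*GRM7* (ENSMMUG00000011231) encodes a metabotropic glutamate receptor best known from nerve terminals. It was present at 3.25 to 31.9 CPM in *C* (median 9.35) and 3.14 to 9.22 CPM in *T* (median 4.83). It was at 3.38 to 12.1 CPM in *WSD* (median 4.59) and 1.13 to 11.9 CPM in *T* + *WSD* (median 3.44). All 3 treated groups were lower in median and none stood apart from the controls, of which animal 1 was again the highest. Log2 fold changes against *C* were -1.44 ± 0.50 (SE) for *T* + *WSD*, -1.13 ± 0.50 for *WSD* alone and -1.28 ± 0.50 for *T* alone, and without control animal 1 these were -0.94, -0.64 and -0.80.

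The comparisons with a single treatment asked whether either treatment alone went with these levels. *LHCGR*, *PTGDR*, *APLNR* and *SSTR3* had *T* medians close to those of the controls and *WSD* medians on the side of *T* + *WSD*. For *LHCGR*, *APLNR* and *SSTR3*, however, the *T* median was above that of *C* within the library batch and below it outside. For *PTGDR* the *T* median was below that of *C* in both. *AVPR2* had a higher median than the controls in every treated group, and *CRHR1*, *CHRM3* and *GRM7* a lower one. In *WSD* against *C*, edgeR called 0 of the 8 receptors and 0% of all genes, with the smallest adjusted p at 0.131 for *PTGDR*, while 6 of the 8 and 18.5% of all genes had an unadjusted p under 0.05. DESeq2 called 1 receptor there, *PTGDR* (adjusted p = 0.0252), and 1.58% of the genes it tested. In *T* against *C*, edgeR and DESeq2 each called 0 of 8 (0% of all genes in edgeR and 0.0466% in DESeq2), the smallest edgeR adjusted p was 0.519 for *CRHR1*, and 3 of 8, *CRHR1*, *GRM7* and *AVPR2*, against 8.63% of all genes, had an unadjusted p under 0.05. These comparisons share their controls with the one that chose the receptors, so their directions are not independent of the choice.

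**Figure D2:**
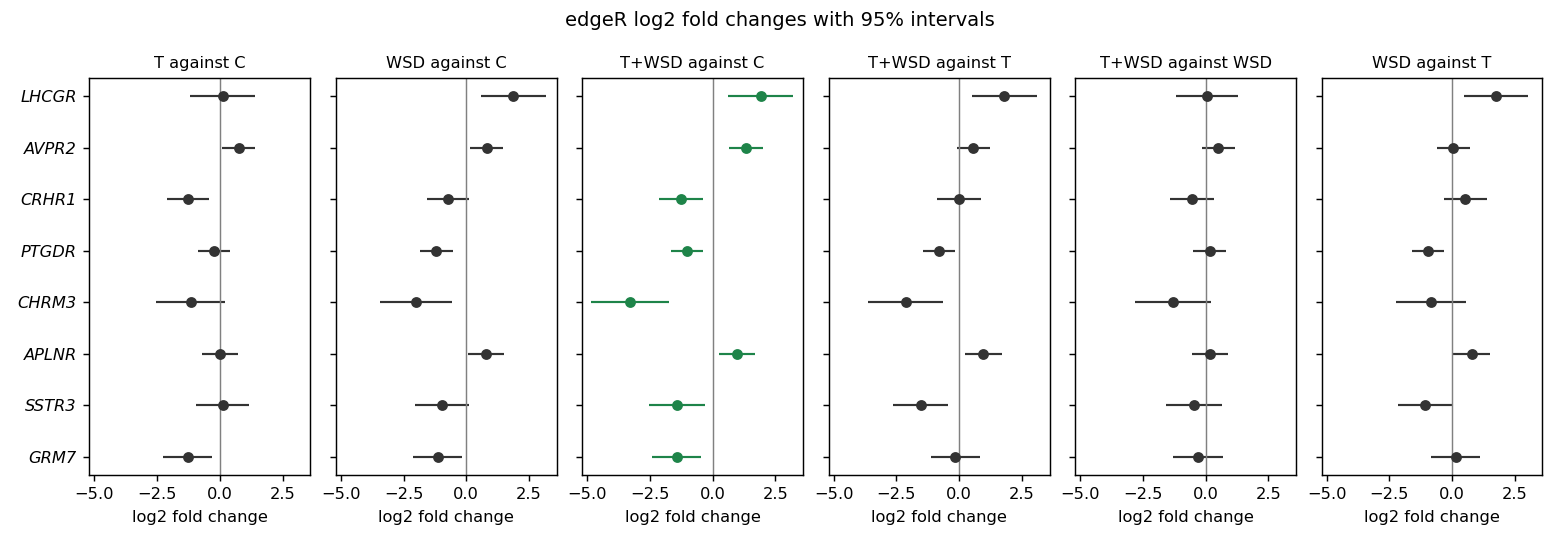
Log2 fold change (points) with 95% interval (bars) of each receptor in 6 comparisons, from edgeR on all 24 animals, where green marks *T* + *WSD* against *C*, by which the receptors were chosen. In *T* + *WSD* against *WSD* every interval holds 0, and in *WSD* against *T* the intervals of *LHCGR*, *PTGDR* and *APLNR* do not.

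*WSD* against *T* is the comparison that uses none of the animals by which the receptors were chosen. EdgeR and DESeq2 each called 0 of the 8 receptors, and edgeR called 0% and DESeq2 0.225% of all genes. An unadjusted p under 0.05 was found for 3 of the 8, against 9.81% of all genes tested. *LHCGR* was 1.76 log2 units higher in *WSD* than in *T* (95% interval 0.48 to 3.04, edgeR adjusted p = 0.375) and *APLNR* 0.77 higher (0.05 to 1.5, edgeR adjusted p = 0.505), while *PTGDR* was -0.97 log2 units apart and lower in *WSD* (-1.62 to -0.32, edgeR adjusted p = 0.338). Of the 6 *WSD* animals, 4 lay above every *T* animal for *APLNR* and 4 under every *T* animal for *PTGDR*. For *AVPR2* (log2 difference 0.05, interval -0.59 to 0.70) and *GRM7* (0.15, -0.83 to 1.13) the intervals held 0 near their middle, and changes of 1.5-fold in either direction lie within them.

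Adding the diet to testosterone was compared as *T* + *WSD* against *T*, and adding testosterone to the diet as *T* + *WSD* against *WSD*, both with the *T* + *WSD* animals by which the receptors were chosen. With the diet added, edgeR called 0 of 8 receptors, where 3.77% of all genes were called, the smallest adjusted p was 0.0897 for *CHRM3*, and 5 of 8 had an unadjusted p under 0.05, against 25.9% of all genes. Every one of the 6 *T* + *WSD* animals lay above every *T* animal for *APLNR* (log2 fold change 0.96 ± 0.37, SE, edgeR adjusted p = 0.110), as were 2.99% of all genes tested. DESeq2 called 3 receptors there, *LHCGR* (log2 fold change 1.82), *CHRM3* (-2.10) and *SSTR3* (-1.56), and 5.92% of the genes it tested. With testosterone added to the diet, edgeR and DESeq2 each called 0 of 8, where edgeR called 0.815% and DESeq2 2.54% of all genes, the smallest edgeR adjusted p was 0.356, and 0 of 8 had an unadjusted p under 0.05, against 20% of all genes. *LHCGR* differed there by 0.04 log2 units (95% interval -1.18 to 1.27), *PTGDR* by 0.17 (-0.49 to 0.83), *APLNR* by 0.19 (-0.53 to 0.91) and *CHRM3* by -1.30 (-2.82 to 0.22). The interaction of testosterone and diet, called at an adjusted p under 0.1, was called for 0 of 8 receptors by edgeR and by DESeq2, with 0 of 8 at an unadjusted p under 0.05 (13.5% of all genes), and for 0.809% of all genes in edgeR and 2.77% in DESeq2, and its smallest adjusted p was 0.591, for *GRM7*.

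Relatives of the 8 receptors, 31 genes of the same families of which 13 were tested, moved in both directions in *T* + *WSD* against *C*. In edgeR 4 of these 13 rose, 2 fell and 7 were not called, where 10% of all genes tested were called (4.72% higher and 5.29% lower). The median log2 fold change of the 13 was 0.52, against -0.04 over all genes tested. *OXTR*, the oxytocin receptor and closest relative of the vasopressin receptors, rose from a median of 12.7 CPM in *C* (5.31 to 32.3) to 66.0 CPM in *T* + *WSD* (31.1 to 152), a log2 fold change of 2.15 ± 0.55 (SE, edgeR adjusted p = 0.0121), and it also rose in *T* + *WSD* against *T*, by 2.81 ± 0.56 (edgeR adjusted p = 0.00912). The vasopressin V1a receptor *AVPR1A* was at 0.89 ± 0.31 and was not called. Among receptors of the gonadotropin family, *TSHR*, the thyrotropin receptor, was at 0.52 ± 0.41 and was not called. *TSHR* had a median of 58.4 CPM in *WSD*, 19.8 CPM in *C* and 20.9 CPM in *T* + *WSD*. Its log2 fold change was 1.78 ± 0.42 in *WSD* against *C* (edgeR adjusted p = 0.131). In *T* + *WSD* against *WSD* it was -1.26 ± 0.42 (edgeR adjusted p = 0.0981), and neither was called.

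Prostanoid receptors diverged. *PTGER2*, the EP2 receptor for prostaglandin E2, which like *PTGDR* couples to Gs and lies next to it in that annotation, rose by 1.30 ± 0.31 log2 units (SE, edgeR adjusted p = 0.00940), from 1.44 to 4.50 CPM in *C* to 4.26 to 9.89 CPM in *T* + *WSD*, whereas *PTGDR* was lower. *PTGFR*, the receptor for prostaglandin F2 alpha, fell by 2.19 ± 0.53 log2 units (edgeR adjusted p = 0.00976), from a median of 107 CPM in *C* to 30.2 CPM in *T* + *WSD*, and it also fell in *T* + *WSD* against *T*, by 1.95 ± 0.53 (edgeR adjusted p = 0.0329). *PTGER3* was at -0.09 ± 0.16, *PTGER4* at 0.02 ± 0.26 and *PTGIR*, the prostacyclin receptor, at 0.18 ± 0.45, and none of them was called. *TBXA2R*, the thromboxane receptor, was lower at -0.97 ± 0.36 (edgeR adjusted p = 0.0648) and was not called either.

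Somatostatin receptors diverged as well. *SSTR1* fell by 3.71 ± 0.98 log2 units (SE, edgeR adjusted p = 0.0148), from a range of 1.84 to 37.6 CPM in *C* to 0 to 1.85 CPM in *T* + *WSD*. *SSTR2* rose by 1.71 ± 0.42 log2 units (edgeR adjusted p = 0.0107), from a median of 1.12 CPM to 4.41 CPM, beside *SSTR3*, which was lower without being called. *AGTR1*, the type 1 angiotensin receptor and a relative of *APLNR*, rose by 0.88 ± 0.23 log2 units (edgeR adjusted p = 0.0148). Its *T* + *WSD* range of 30.6 to 42.7 CPM lay above the control range of 9.62 to 28.7 CPM, where 7.61% of all genes tested did not overlap. The other muscarinic and metabotropic glutamate receptors in the table, from *CHRM1* at no more than 1 count to *GRM5* at no more than 8, were all too low to be tested.

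**Figure D3:**
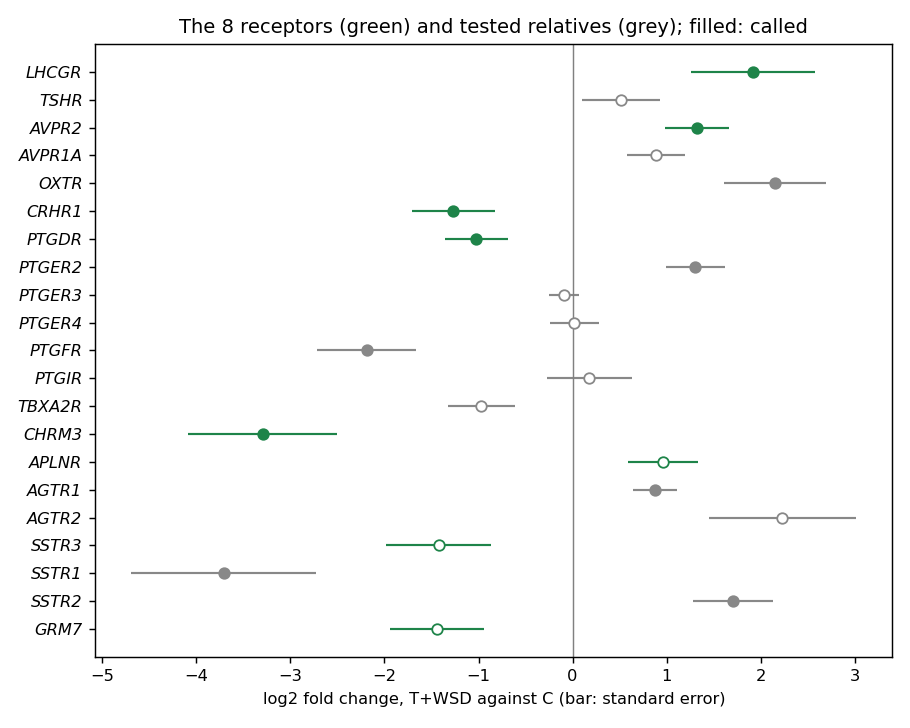
Log2 fold change in *T* + *WSD* against *C* (points) with its standard error (bars) for the 8 receptors (green) and 13 tested relatives (grey), ordered by family, where filled points were called. Among prostanoid receptors *PTGER2* lies to the right of 0 while *PTGDR* and *PTGFR* lie to the left, as does *TBXA2R*, which was not called. Among somatostatin receptors *SSTR2* lies to the right and *SSTR1* and *SSTR3* to the left.

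Several genes for the ligands had few or no counts. Of 21 genes of ligands and ligand metabolism, 13 were in the table and 7 were tested. *CHAT* and *SLC18A3*, which make and load acetylcholine, had 0 counts in every library, the somatostatin gene *SST* had at most 1, *CRH* at most 8, and the luteinizing hormone genes *LHB* and *CGA* at most 12 and 22. Prostaglandin synthesis was measured. *PTGS2*, the inducible cyclooxygenase, was the only one of the 7 called in *T* + *WSD* against *C*, where 10% of all genes tested were called. It fell by 2.34 ± 0.68 log2 units (SE, edgeR adjusted p = 0.0223), from a median of 14.6 CPM in *C* (5.62 to 72.5) to 3.66 CPM in *T* + *WSD* (2.75 to 9.07). *HPGDS*, which makes prostaglandin D2, was at 0.11 ± 0.35, *PTGS1* at -0.50 ± 0.26 and *HPGD* at -1.36 ± 0.53 (edgeR adjusted p = 0.0804), and none of them was called. *PTGDS*, *APLN* and *AVP* had no matched identifier and were not assessed. The median of the 7 was -0.50.

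Downstream of the receptors, 9 of 13 G protein alpha subunits were tested, with a median log2 fold change of -0.03 in *T* + *WSD* against *C*. *GNA14*, of the Gq class, was the only one called, where 10% of all genes tested were called. It rose by 1.24 ± 0.38 log2 units (SE, edgeR adjusted p = 0.0270), from 11.4 to 56.2 CPM in *C* to 62.2 to 102 CPM in *T* + *WSD* with no overlap, as for 7.61% of all genes tested. Against *T* it rose by 1.62 ± 0.38 (edgeR adjusted p = 0.0194). *GNAS*, the Gs subunit, was at -0.03 ± 0.10. None of the 6 tested receptor kinases and arrestins was called by edgeR (2 had an unadjusted p under 0.05 and DESeq2 called 1), and their median was -0.08.

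Of 16 effectors, 15 were tested, and in *T* + *WSD* against *C* 3 rose, 1 fell and 11 were not called, with a median of 0.31. Of all genes tested, 10% were called there. The adenylyl cyclase *ADCY4* rose by 0.71 ± 0.13 log2 units (SE, edgeR adjusted p = 0.00294), from 21.4 to 31.2 CPM in *C* to 34.4 to 49.8 CPM in *T* + *WSD*, and by 0.64 ± 0.13 (edgeR adjusted p = 0.0227) against *WSD*. A further cyclase, *ADCY1*, rose by 0.99 ± 0.32 (edgeR adjusted p = 0.0365). Phospholipase C isoforms parted, as *PLCB4* rose by 0.79 ± 0.21 (edgeR adjusted p = 0.0134) and *PLCB1* fell by 1.01 ± 0.25 log2 units (edgeR adjusted p = 0.00999).

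Marker genes of other cells moved with some of these levels. For their counts in *T* + *WSD* against *C*, 4.72% of all genes tested were called higher and 5.29% lower. Of 14 mesothelial markers, 12 were in the table and 11 of these fell in *T* + *WSD* against *C*, and their summed level ran from 3475 to 41364 CPM in *C*, from 3416 to 18691 in *T*, from 928 to 6979 in *WSD* and from 344 to 3521 in *T* + *WSD*, with no marker at 0 in every library of a group. All 12 endothelial markers were in the table, 7 rose and 0 fell, and their sum ran from 1097 to 1846 CPM in *C*, 1365 to 2242 in *T*, 1632 to 2507 in *WSD* and 2090 to 3216 in *T* + *WSD*, so that *C* and *T* + *WSD* did not overlap. The summed level of 8 adipocyte markers, of which 2 rose and 0 fell, ran from 2831 to 15518 CPM in *C*, from 9186 to 21019 in *T*, from 10228 to 20198 in *WSD* and from 14281 to 21770 in *T* + *WSD*. Control animal 1 held the mesothelial sum of 41364 CPM, and the next control was at 10767 CPM. The same animal had the lowest adipocyte (2831 CPM) and endothelial (1097 CPM) sums. All 10 smooth muscle and pericyte markers were in the table, 3 rose and 1 fell, and their sum ran from 914 to 1775 CPM in *C*, 1103 to 1389 in *T*, 871 to 1628 in *WSD* and 1469 to 1954 in *T* + *WSD*. When the mean of the mesothelial markers was added to the fit, 0 of 15207 genes were called in *T* + *WSD* against *C*, where the log2 fold change of *GRM7* was 0.74, of *CHRM3* -0.87, of *CRHR1* -1.42, of *LHCGR* 1.12, of *AVPR2* 0.60 and of *PTGDR* -0.58. When the mean of the endothelial markers was added instead, again with 0 genes called, that of *APLNR* was 0.22, of *AVPR2* 0.46, of *LHCGR* 0.79, of *PTGDR* -0.66, of *CRHR1* -1.07 and of *CHRM3* -3.10. With the mean of the adipocyte markers, also with 0 genes called, it was 0.90 for *LHCGR*, 1.15 for *AVPR2*, -0.46 for *PTGDR*, -1.20 for *CRHR1* and -1.98 for *CHRM3*. The marker levels themselves differed between *C* and *T* + *WSD*, so these fits cannot separate the treatment from the markers. With the mesothelial markers in the fit, the log2 fold change of *PTGFR* was 0.050 and that of *SSTR1* 1.14, both of the opposite sign. The part of these cells in the receptor levels was not tested.

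Within groups, after each group's mean was subtracted, the receptors differed in the markers they varied with over the 24 animals. Pearson's r of log2 CPM with the mesothelial markers was 0.864 for *GRM7* and 0.516 for *CHRM3*. With the endothelial markers it was 0.641 for *AVPR2* and 0.596 for *APLNR*. With the adipocyte markers it was 0.585 for *LHCGR* and -0.565 for *PTGDR*. Outside the library batch (16 animals) these values were 0.762, 0.471, 0.495, 0.692, 0.617 and -0.541 in the same order. The endothelial list was not the one most like these receptors throughout. With Schwann and nerve markers, r was 0.621 for *APLNR* (0.894 outside the batch) and 0.580 for *AVPR2* (0.664), and with fibroblast markers 0.565 for *APLNR* (0.725) and 0.328 for *AVPR2* (0.655). Both values of a point come from 1 library and share its depth, and no test was made of them. *SSTR3* varied with fibroblast markers (0.606) and T and NK cell markers (0.570) and inversely with mast cell markers (-0.661), of which 4 of 8 were in the table. *CHRM3* varied with those mast cell markers positively (0.648, and 0.703 outside the batch), more than with the mesothelial markers. Its 0.516 with the mesothelial markers was under the 95th percentile of its r over all genes tested, 0.584. With mast cell markers r was 0.388 for *LHCGR* and 0.313 for *GRM7*, and 0.727 and 0.736 outside the batch.

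**Figure D4:**
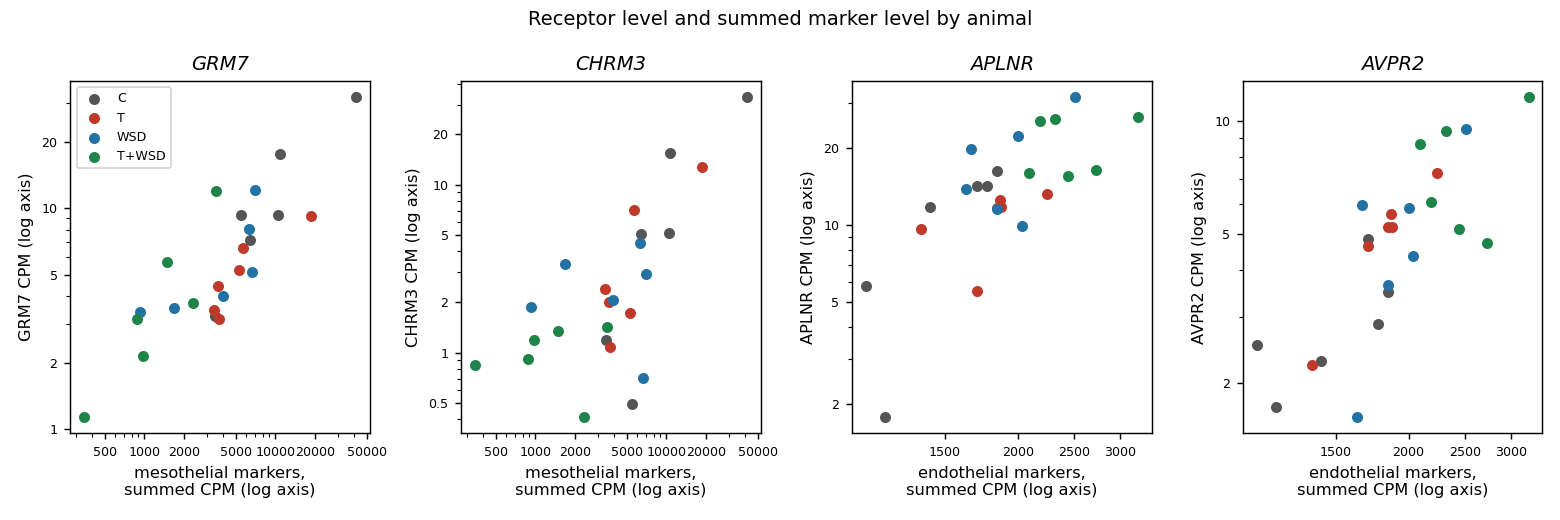
Receptor level in CPM against the summed CPM of mesothelial markers (*GRM7*, *CHRM3*) or endothelial markers (*APLNR*, *AVPR2*), both on log axes, 1 point per animal coloured by group, n = 24. *GRM7* follows the mesothelial sum from the lowest *T* + *WSD* animal (344 CPM of markers) to the highest control (41364 CPM).

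The genes whose levels were most like each receptor were taken as the 3 with a symbol and the highest within-group r over 24 animals, again a description of points that share libraries and depth. Outside the library batch 3 of these 24 genes were still among the 3 highest. For *GRM7* they were *DPP4* (0.927), *B3GNT7* (0.910) and *BNC1* (0.907), the last of which is one of the mesothelial markers. For *APLNR* they were *ITM2C* (0.836), *LAMC1* (0.792) and *KCNA5* (0.786), and for *AVPR2* *PRKAB2* (0.903), *MEOX2* (0.860) and *SLFN5* (0.860). *CHRM3* was most like *RHBDD1* (0.897), *PTPN13* (0.870) and *RNF39* (0.867). *LHCGR* was most like *RHOBTB3* (0.827), *PISD* (0.826) and *PABPN1* (0.821), and *PTGDR* most like *ZNF607* (0.851), *TLR5* (0.839) and *AP4M1* (0.835). *SSTR3* was most like *C1QTNF6* (0.862), which is also its neighbour in the annotation, *STRA6* (0.861) and *GAL3ST4* (0.856). *CRHR1* had the weakest likeness, to *F7* (0.771), *RAB36* (0.756) and *CFAP119* (0.735), and the first of these was at 0.469 outside the batch. The 95th percentile of r over all genes tested was 0.393 for it and at most 0.584, for *CHRM3*.

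**Figure D5:**
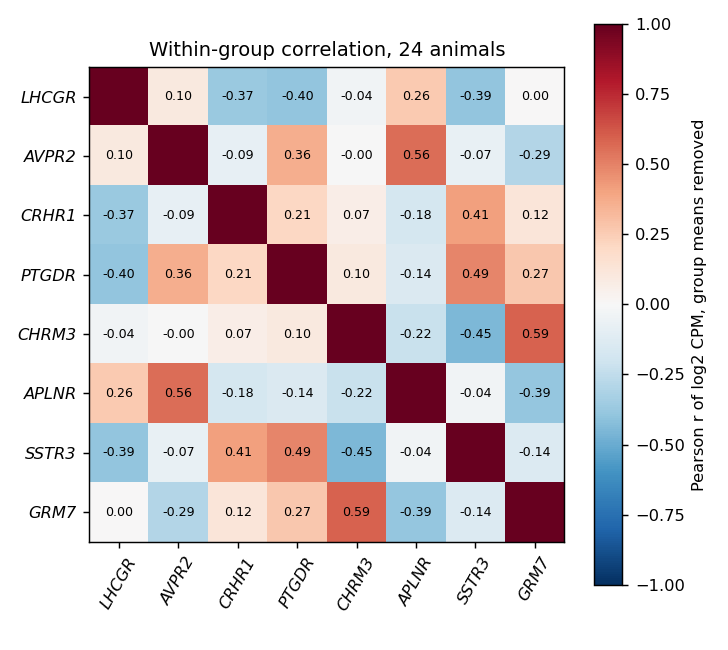
Pearson's r between each pair of receptors over 24 animals after subtracting group means (log2 CPM; red positive, blue negative). The highest values are those of *CHRM3* with *GRM7* (0.59) and *AVPR2* with *APLNR* (0.56), and the lowest is that of *CHRM3* with *SSTR3* (-0.45).

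Among the receptors themselves, *CHRM3* and *GRM7* varied together most closely within groups (r = 0.589, and 0.798 over the 16 animals outside the library batch), followed by *AVPR2* and *APLNR* (0.560 and 0.748). The 95th percentile of r over all genes tested was 0.584 for *CHRM3*, 0.580 for *GRM7*, 0.475 for *AVPR2* and 0.491 for *APLNR*. *PTGDR* and *SSTR3* were at 0.486 (0.530 outside the batch), under the 95th percentiles of 0.533 for *PTGDR* and 0.561 for *SSTR3*. *LHCGR* was opposed to *PTGDR* (-0.397 and -0.489) and to *SSTR3* (-0.394 and -0.684).

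The calls in *T* + *WSD* against *C* changed when single animals or the libraries of the batch were left out. Leaving out 1 animal at a time left between 2 and 6 of the 8 receptors called, while the calls over all genes ran from 900 to 1790. Of the receptors, 2 were called without control animal 1 or 3 or *T* + *WSD* animal 8, 9, 10 or 12. Without *T* animal 15, *WSD* animal 20 or 21 or *T* + *WSD* animal 7 or 11, 3 were called. With the library batch as covariate on all 24 animals, edgeR called 4 of the 8 receptors and 1499 of 15207 genes. Within the 16 libraries outside the batch, a fit with fewer animals per group, it called 0 of the 8 and 78 of 15448 genes. Log2 fold changes there were 1.83 for *LHCGR*, 0.94 for *AVPR2*, -1.55 for *CRHR1*, -0.86 for *PTGDR* and -2.69 for *CHRM3*. Loss of animals and the batch cannot be told apart in that fit. Of the 6 relatives called in *T* + *WSD* against *C*, *SSTR2* alone was called outside the batch. Without control animal 1 *PTGS2*, *SSTR1*, *GNA14* and *ADCY1* were not called by edgeR. *GNA14* also lost its call without control animal 3 or *T* + *WSD* animal 8 or 10, and *ADCY1* without control animal 2, 3 or 4 or *T* + *WSD* animal 7, 8, 9 or 10. Against *T*, *PTGFR* was not called without *T* animal 17 or 18 or any 1 of *T* + *WSD* animals 8 to 12, and against *WSD*, *ADCY4* was not called without *WSD* animal 20 or 24 or *T* + *WSD* animal 7, 8 or 9.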

How the data were processed

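Omental WAT of 24 female rhesus macaques was profiled by RNA-seq, with 1 library per animal and groups taken from the sample labels. Per the study's methods and the submitters' processing notes, ribosomal RNA was removed before library construction and single reads were checked with FastQC 0.11.5, trimmed with Trimmomatic 0.36 and aligned to rheMac8 with STAR 2.5.2b. The authors deposited raw counts per gene, without normalization. The counting tool, its strand setting and the annotation are not given in the sources used here, so overlapping and antisense genes cannot be separated. Identifiers of 7 receptors came from the gene name table and that of *AVPR2* from the paper's supplementary tables. RefSeq genes of T2T-MMU8v2.0 gave neighbours only.

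EdgeR 4.0.16 in R 4.3.3 was fitted to all 24 animals (TMM, filterByExpr at its minimums of 10 counts and 15 in total, glmQLFit with robust=TRUE and legacy=TRUE), giving 15207 tested genes with Benjamini-Hochberg adjustment over all of them and two-sided p. SE is the absolute log2 fold change divided by the square root of F, and 95% intervals span 1.96 SE. Log2 CPM for correlations used a prior count of 2. The filter and test were tested on simulated data. Receptors, gene lists and tests were chosen with earlier results of these data known. Named genes are the 8 receptors, the 3 genes most like each, and listed pathway genes called in any comparison, and other members of those lists were named after their values were seen. Total counts per library and a floor of 3 counts cover counting error only. No 2 libraries of a group (60 pairs) were identical. The labels name each library as a separate animal. Alternatives were DESeq2 1.42.0, RLE and upper-quartile scaling, other filters and dispersions, only the groups compared, the library batch as covariate or left out, mesothelial markers as covariate, other fold thresholds and each animal left out. Bisulfite sequencing, adipocyte areas and serum values were not analysed here.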

Additional observations from a re-analysis of the deposited data

How the results depend on the processing

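No paired analysis was possible because the animals are numbered 1 to 24 without a number shared between groups. The 5 receptors called in *T* + *WSD* against *C* became 8 with DESeq2, 4 with the library batch as covariate and 2 without the filter on low counts. They became 0 in the 16 libraries outside the library batch or with the mesothelial, endothelial or adipocyte markers as covariate, the last 2 of which were chosen after seeing the data. Over all genes the 1522 calls of that comparison became 1499 with the batch as covariate, 78 outside the batch and 0 with each marker covariate. The 0 called in *WSD* against *C* became 1 with DESeq2, and the 0 in *T* + *WSD* against *T* became 3 with DESeq2 (*LHCGR*, *CHRM3* and *SSTR3*, among 1086 of 18335 genes) and 3 with only the groups compared (*PTGDR*, *CHRM3* and *APLNR*, of 7 receptors with a value, among 1059 of 14565 genes). Leaving out 1 animal gave 2 to 6 receptors in *T* + *WSD* against *C*, with 900 to 1790 calls over all genes. In *T* + *WSD* against *T* it gave 0 to 1 (1 without control animal 3 or *T* animal 14), with 238 to 828 calls over all genes. Of the 24 most similar genes, 3 remained among the 3 highest outside the batch. The cause of these changes was not tested. Relatives called in *T* + *WSD* against *C* numbered 6, and 10 with DESeq2, 1 outside the batch (*SSTR2*) and 0 with each marker covariate, and the 4 effectors became 1 at a fold change over 2.
Log2 fold changes turned as follows, mostly from values near 0. With RLE scaling *APLNR* in *T* against *C* was -0.00018 and *CRHR1* in *T* + *WSD* against *T* 0.0066, and with upper-quartile scaling -0.0011 and 0.024. With the batch as covariate *SSTR3* in *T* against *C* was -0.019. Outside the batch, *T* against *C* gave -0.60 for *LHCGR*, -0.14 for *APLNR* and -0.85 for *SSTR3*, *T* + *WSD* against *WSD* gave -0.13 for *LHCGR*, -0.056 for *AVPR2*, -0.18 for *APLNR* and 0.26 for *GRM7*, and *GRM7* was 0.054 in *T* + *WSD* against *T* and -0.21 in *WSD* against *T*. The interaction outside the batch was 0.47 for *LHCGR*, -0.041 for *APLNR* and 0.73 for *SSTR3*. With the mesothelial covariate, *T* + *WSD* against *C* gave 0.74 for *GRM7*, 0.050 for *PTGFR* and 1.14 for *SSTR1*, *WSD* against *C* gave 0.042 for *GRM7*, *T* against *C* gave -0.058 for *LHCGR* and -0.11 for *APLNR*, *T* + *WSD* against *WSD* gave -0.39 for *LHCGR*, -0.25 for *APLNR* and 0.70 for *GRM7*, *T* + *WSD* against *T* gave -0.0093 for *AVPR2* and 1.33 for *GRM7*, *WSD* against *T* gave -0.10 for *AVPR2*, and the interaction was 0.019 for *CHRM3* and -0.14 for *APLNR*. With the endothelial covariate, *T* against *C* gave -0.091 for *LHCGR* and -0.19 for *APLNR*, *T* + *WSD* against *WSD* gave -0.51 for *LHCGR* and -0.17 for *APLNR*, *T* + *WSD* against *T* gave 0.090 for *CRHR1* and 0.092 for *GRM7*, and *WSD* against *T* gave -0.11 for *AVPR2*. With the adipocyte covariate, *T* against *C* gave -0.58 for *LHCGR*, 0.095 for *PTGDR* and -0.16 for *APLNR*, *T* + *WSD* against *WSD* gave -0.22 for *LHCGR*, *T* + *WSD* against *T* gave 0.017 for *CRHR1* and 0.21 for *GRM7*, and the *LHCGR* interaction was 0.36. Leaving out 1 animal, the range crossed 0 in *T* against *C* for *APLNR* (-0.22 to 0.17), *LHCGR* (-0.64 to 0.66) and *SSTR3* (-0.27 to 0.40), in *T* + *WSD* against *WSD* for *LHCGR* (-0.15 to 0.52) and *PTGDR* (-0.017 to 0.34), in *T* + *WSD* against *T* for *CRHR1* (-0.39 to 0.18) and *GRM7* (-0.69 to 0.068), in *WSD* against *T* for *AVPR2* (-0.21 to 0.23) and *GRM7* (-0.15 to 0.38), and in the interaction for *AVPR2* (-0.45 to 0.014), *CHRM3* (-0.99 to 0.50) and *LHCGR* (-0.62 to 0.69). The depth limits *CRHR1* most, whose highest count was 44.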
